A study of Mus musculus with 12 samples.

Results

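Interferon-induced genes were followed in total adult thymocytes, the developing T cells of the thymus, from AND-TCR-transgenic mice and from C57BL/6 mice. The group was a list of 37 genes, and its members were all probe sets on 3 Affymetrix array types, U74Av2, U74Bv2 and U74Cv2, whose only annotated gene symbol is on that list. This gave 51 probe sets for 34 genes, out of 36701 probe sets, which cover 15964 singly named genes. Irf2, Oas1a and Tgtp1 had no such probe set and were not analysed here.

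The AND mice carry a transgenic T-cell receptor and the H-2b haplotype, in which their thymocytes are positively selected. The C57BL/6 mice carry no such transgene, and the background strain of the AND mice is not given. A strain difference and the transgene therefore cannot be told apart. Each group was hybridized in duplicate to each array type, 12 arrays in all, and the study's methods call the duplicates independent experiments. The number of mice behind each RNA is not given. The p-values measure the spread between 2 hybridizations a group, which may be technical. An exact permutation test has too few regroupings of 4 arrays to reach 0.05 for a single gene, so differences were tested with a model fitted across all probe sets (limma).

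Cells answer type I interferons through the receptor chains Ifnar1 and Ifnar2 and interferon gamma through Ifngr1 and Ifngr2. The receptors activate Janus kinases, which phosphorylate STAT proteins. A complex of STAT proteins with Irf9 binds interferon-stimulated response elements (ISRE), and STAT dimers bind gamma-activated sites (GAS), in the promoters of target genes. The products block viral translation and replication, degrade or edit RNA, and attack the vacuoles of intracellular pathogens. In the thymus, type I interferon is made at steady state and acts on thymocytes late in their maturation.

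Of the 37 members, 31 had a promoter window in the RefSeq tables (GRCm38.p6, 250 bases before to 50 after each transcript start). The ISRE core searched was GAAA, any 2 bases and GAAA, and the GAS was TTCNNNGAA, both on both strands, and matches may overlap. An ISRE core was present for 19 of these 31 genes (61.3%), against 3.99% of 27025 genes, and a GAS for 14 (45.2%), against 9.55%. A match describes letters only. The following windows are examples that hold a match, from members whose array values are described below. Motif matches are in capitals and 10 flanking bases in lower case. Windows of other members described below, such as Irf7 and Irf9, held neither motif and are not shown. Positions count from the start as 0, and coordinates are GRCm38.p6. The first 3 are from members that read higher in AND thymocytes at an unadjusted p under 0.05. Isg15 lies on the minus strand with its first ISRE core at position -78 (chr4:156200865-156200906), Ifit1 on the plus strand at position -104 (chr19:34640775-34640823), and Irf1 on the plus strand with a GAS at position -90 (chr11:53769914-53769942).
Isg15: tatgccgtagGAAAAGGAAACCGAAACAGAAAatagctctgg
Ifit1: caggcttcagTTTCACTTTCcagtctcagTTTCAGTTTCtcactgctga
Irf1: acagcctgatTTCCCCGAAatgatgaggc

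The next 4 windows are from tested members that did not pass that threshold. Igtp (chr11:58199501-58199541) and Irgm2 (chr11:58214892-58214932), both on the plus strand, carry a GAS followed by an ISRE core. The stretches shown differ at 1 of 41 bases, T14C, with Igtp as the first sequence and positions counted from 1 at its 5′ end. Irgm1 (chr11:48871425-48871460, minus strand) has its first ISRE core at position -30. Bst2 (chr8:71537577-71537618, minus strand) has a GAS that overlaps ISRE cores.
Igtp: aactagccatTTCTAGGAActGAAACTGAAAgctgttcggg
Irgm2: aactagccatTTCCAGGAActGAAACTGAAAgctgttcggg
Irgm1: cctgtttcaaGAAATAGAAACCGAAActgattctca
Bst2: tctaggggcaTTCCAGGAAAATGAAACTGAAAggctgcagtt

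Most of the interferon-induced genes that could be measured read higher in AND thymocytes than in C57BL/6 thymocytes, but no probe set passed the test adjusted over all 12844 tested probe sets (limma, Benjamini-Hochberg). Fitted log2 fold changes at the brightest probe set of each gene were 1.01 to 1.32 for Usp18, Ifi27l2a, Ifit1, Irf9 and Adar. Those of Ifit1 and Iigp1 are lower bounds of the fitted value only and have no rank among the members. They were 1.55 for Ifit1 and 1.34 for Iigp1 when the limit was 1 noise SD, against 1.16 and 0.73 at the limit used here. With floor and limit at 4 noise SDs, the log2 fold change was 0.66 for Usp18, 0.66 for Adar (140832_at) and 1.12 for Irf9. Testing required that AND or C57BL/6 exceed the detection limit on both hybridizations, and the limit was an intensity of 420.8 (U74Av2), 869.4 (U74Bv2) or 1579 (U74Cv2). This was met by 27 of the 51 member probe sets, from 22 genes. Of the 27, 5 met the condition through the AND arrays alone, those of Ifit1 and Iigp1 with both C57BL/6 arrays under the limit and 1 each of Ifi204, Ifi27l2a and Irf7 (162202_f_at) with 1 C57BL/6 array under it, and 1 of Stat2 (164778_r_at) met it through C57BL/6 alone. The counts over tested members therefore include probe sets chosen in part by the group in which they were high.

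None of the 27 was called at an adjusted p under 0.05, where 0.483% of all tested probe sets were called higher and 0.568% lower. The lowest adjusted p of a member was 0.12. At an unadjusted p under 0.05, 11 of the 27 (40.7%) read higher, against 7.47% of all tested probe sets, and 0 read lower, against 6.51%. The arrays of the 2 groups did not overlap for 17 probe sets that read higher (63%, against 23%) and for 1 that read lower, against 21.4%. In both hybridizations the AND array exceeded the C57BL/6 array of the same number for 19 (70.4%, against 30.2%). The median log2 fold change over the 27 was 0.51, against 0.02 over all tested probe sets. By hybridization, the members' median log2 ratio was 0.37 in the first and 0.75 in the second, against -0.01 and 0.04 over all. Among the 21 member probe sets that exceeded the limit on every array, 8 read higher at that unadjusted p (38.1%, against 6.83%), and the median was 0.50.

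The count of 11 depended on every hybridization. It was 5 without AND replicate 1 (18.5%, against 8.39% of all tested probe sets), 6 without AND replicate 2 (22.2%, against 6.71%), 4 without C57BL/6 replicate 1 (14.8%, against 4.62%) and 2 without C57BL/6 replicate 2 (7.41%, against 5.5%). The median log2 fold change stayed between 0.47 and 0.68 in these fits. The run records give module number 4 for all AND arrays and 2 for all C57BL/6 arrays, on stations 3 and 4. Module number and genotype therefore cannot be told apart. The station on U74Cv2 and the chip lot on U74Av2 changed with the hybridization number, alike in both groups. The first C57BL/6 U74Av2 array was recorded as rescanned. The run records also place the arrays of the same number on the same day. With the day as a block, 10 of the 27 (37%, against 7.13%) read higher at the unadjusted p, and 1 of the members, Irf9, was called (limma adjusted p = 0.0421).

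**Figure D1:**
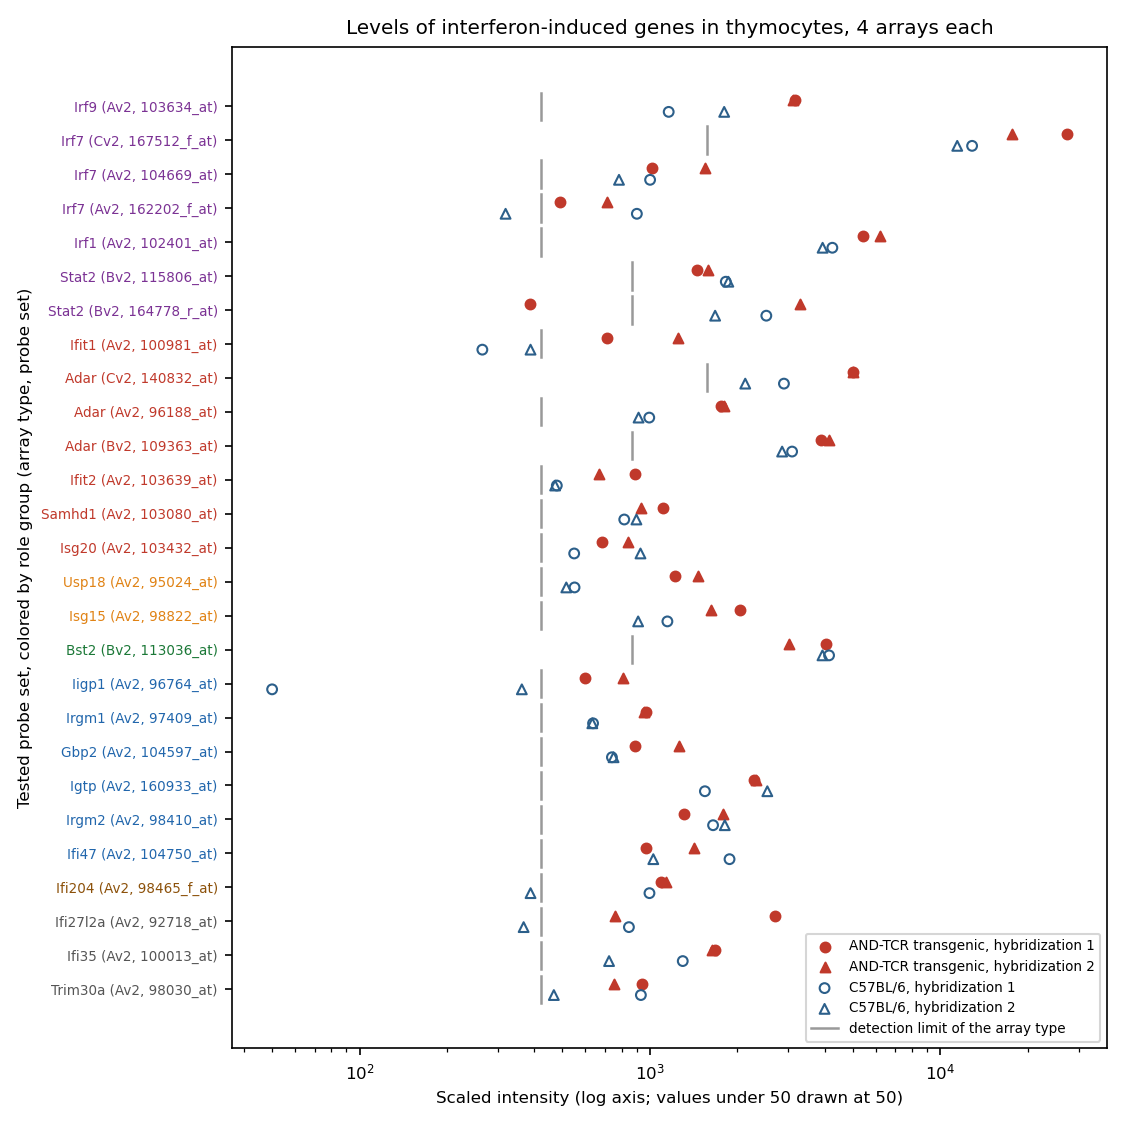
Scaled intensity (log axis) of the 27 tested member probe sets on each array, colored by role group, with AND-TCR-transgenic values (filled) drawn above C57BL/6 values (open) and the detection limit as a gray bar. Circles are the first and triangles the second hybridization; both C57BL/6 arrays of Ifit1 and Iigp1 lie under the limit.

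The 2 groups differed beyond the transgene. Xist, the RNA of the inactive X chromosome, read -52.8 and -98.6 on the AND arrays and 2878 and 3001 on the C57BL/6 arrays (limma adjusted p = 0.0133), and the Y-linked gene Eif2s3y read 1649 and 1529 on AND arrays, against -109.9 and 13 on C57BL/6 arrays (adjusted p = 0.0422). Sex and genotype therefore cannot be told apart. Markers of the maturation stage differed as well. Cd4 read 7889 and 10228 in AND, against 12786 and 13657 in C57BL/6 (adjusted p = 0.194), and Cd8a 10871 and 10251 in AND, against 18421 and 20338 in C57BL/6 (adjusted p = 0.0363), so these T-lineage markers were present on every array. Of 12 tested marker genes of mature single-positive thymocytes, 6 were called higher, against 0.483% of all tested probe sets. Positive log2 fold changes were seen for 11 of the 12. Ccr7, a chemokine receptor, read 3387 and 2625 in AND and 928 and 588 in C57BL/6 (adjusted p = 0.051). Il7r went the other way without overlap, at 1425 and 1426 in AND, against 2176 and 1729 in C57BL/6 (log2 fold change -0.44). The U74Av2 intensities of the list summed to 96739 and 92647 in AND, against 55012 and 56045 in C57BL/6. Of 11 tested marker genes of double-positive thymocytes, 7 were called lower, against 0.568% of all tested probe sets. Rag1, a subunit of the recombinase, read 6545 and 6313 in AND and 33115 and 28353 in C57BL/6. The double-positive list summed to 75117 and 83267 in AND, against 199363 and 192675 in C57BL/6. Fewer cells of a type and less RNA per cell cannot be told apart in such bulk samples. The part of sex or of the maturation stage in the interferon-induced differences was not tested.

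Usp18 and Isg15 form a pair in which Isg15 is a ubiquitin-like protein attached to other proteins and Usp18 is the protease that removes it and also damps type I interferon receptor signalling. Usp18 (95024_at, U74Av2) read 1218 and 1460.1 in AND thymocytes, against 550.3 and 515 in C57BL/6 thymocytes. Both AND arrays lay above both C57BL/6 arrays, and the log2 fold change of 1.32 ± 0.31 (SE, n = 2 each) had a limma adjusted p of 0.12. The C57BL/6 values of Usp18 lay not far above the detection limit of 420.8. Isg15 (98822_at, U74Av2) read 2050.1 and 1618 in AND, against 1149 and 911 in C57BL/6. Its log2 ratio was 0.83 in each hybridization (adjusted p = 0.302).

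The antiviral effectors act on RNA or nucleotides. Adar, which converts adenosine to inosine in double-stranded RNA, had a tested probe set on every array type. It read 1755 and 1794 in AND, against 995 and 914 in C57BL/6, on U74Av2 (96188_at). It read 3880.2 and 4134 in AND, against 3089.7 and 2855 in C57BL/6, on U74Bv2 (109363_at). It read 4998 and 4999 in AND, against 2896 and 2131 in C57BL/6, on U74Cv2 (140832_at). The groups were apart on all 3, with log2 fold changes of 0.90, 0.43 and 1.01 and adjusted p of 0.243, 0.352 and 0.301 (limma), and the remaining probe set of the gene, 102741_at, was not tested, with 619 and 79.5 in AND and 699 and 214 in C57BL/6.

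Ifit1 and Ifit2 encode proteins that bind viral RNA and block its translation. Ifit1 (100981_at, U74Av2) read 709.6 and 1248 in AND, against 265 and 388 in C57BL/6. Both C57BL/6 arrays were under the detection limit and were set to it, so the fitted 2.24-fold difference is understated. The 95% interval of its log2 fold change ran from 0.35 to 1.97 (limma adjusted p = 0.198). Ifit2 (103639_at, U74Av2) read 886 and 668 in AND, against 478 and 472 in C57BL/6, a log2 fold change of 0.70 ± 0.28 (SE, n = 2 each, adjusted p = 0.338). The C57BL/6 values of Ifit2 lay just above the limit. The nucleotide hydrolase Samhd1 read 1108 and 932 in AND, against 816 and 899 in C57BL/6, and the 95% interval of its log2 fold change included 0. The interval for the exonuclease Isg20 ran from -0.76 to 0.94, with overlapping groups.

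Among the transcription factors, Irf9, the DNA-binding subunit of the complex with Stat2, read 3153 and 3116 in AND, against 1161 and 1803 in C57BL/6 (103634_at, U74Av2). The AND arrays were close to each other and well above both C57BL/6 arrays, with a log2 fold change of 1.12 ± 0.28 (SE, n = 2 each, limma adjusted p = 0.137, and 0.0421 with the day as a block). The log2 ratio was 1.44 in the first hybridization and 0.79 in the second. Irf1, which is induced mainly through STAT dimers and is needed for normal CD8 T-cell development in mice, read 5401 and 6207 in AND, against 4252 and 3936 in C57BL/6 (102401_at, U74Av2). Its log2 fold change was 0.50 ± 0.16 (SE, n = 2 each, adjusted p = 0.232). Neither of the Irf9 promoter windows held an ISRE core or a GAS by the letters searched.

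Irf7, the factor that amplifies type I interferon production, was the only member whose tested probe sets differed in sign. On U74Cv2 (167512_f_at) it read 27389 and 17708 in AND, against 12878 and 11447 in C57BL/6, a log2 fold change of 0.86 ± 0.24 (SE, n = 2 each, limma adjusted p = 0.186). On U74Av2, 104669_at read 1016 and 1543 in AND, against 1002 and 783 in C57BL/6, and 162202_f_at read 491 and 712 in AND, against 902 and 318 in C57BL/6. Their log2 fold changes were 0.50 and -0.06, and only the last set overlapped between the groups. Probe sets with the suffix _f can share probes with other transcripts, so the level at those is uncertain for Irf7.

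Stat2, the STAT protein particular to the type I and type III interferon response and a partner of Irf9, had probe sets on U74Bv2. Of these, 115806_at read 1459 and 1588 in AND, against 1826 and 1863 in C57BL/6, which was the only tested member probe set with both AND arrays below both C57BL/6 arrays. The log2 fold change was -0.28 ± 0.27 (SE, n = 2 each, limma adjusted p = 0.723). The other Stat2 probe set, 164778_r_at, read 388 and 3300.4 in AND, against 2518 and 1678 in C57BL/6, and its duplicates differed more from each other than the groups did. The difference between Irf9 and Stat2 was not tested.

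**Figure D2:**
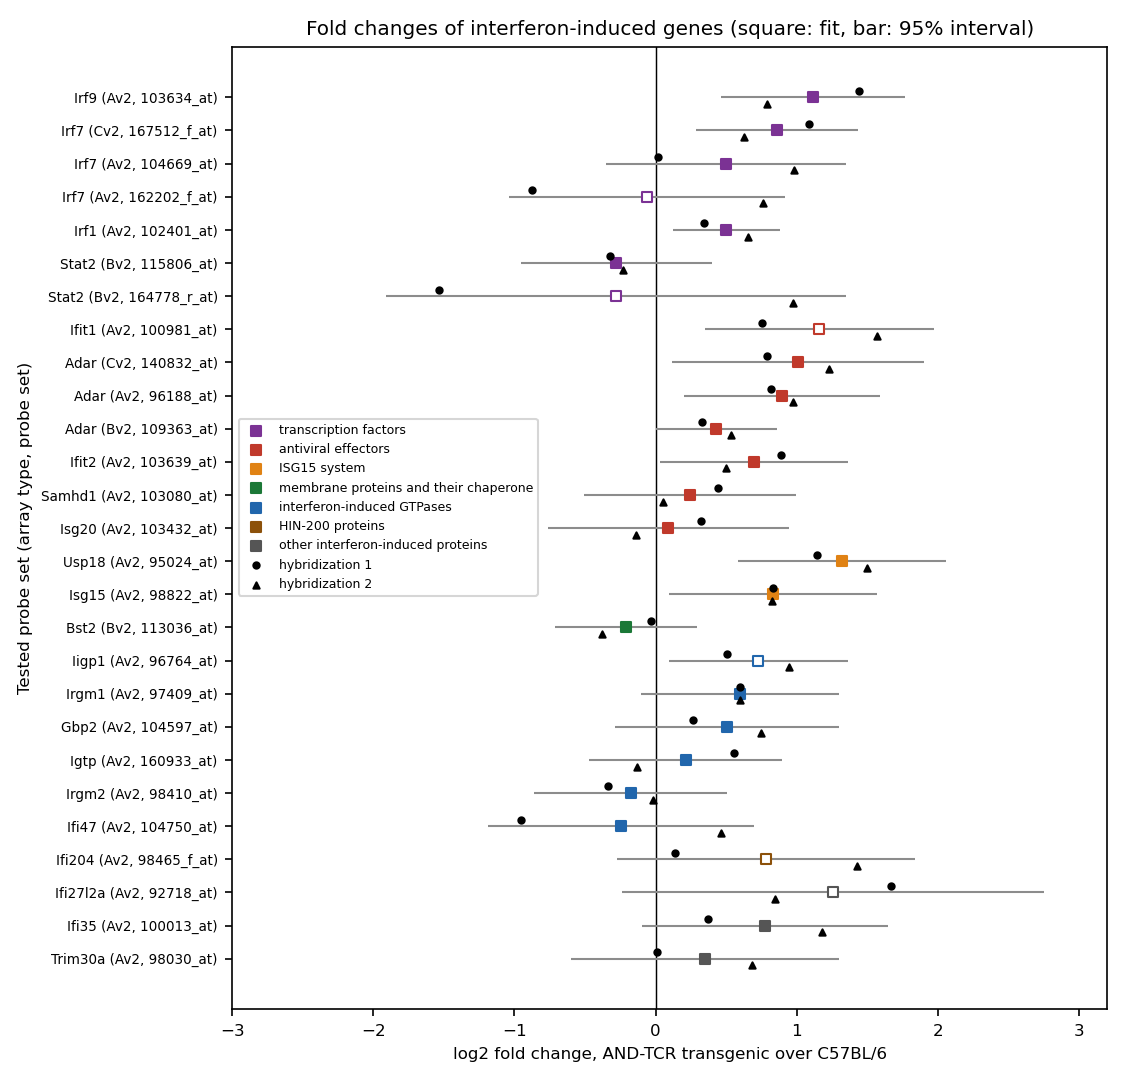
Fitted log2 fold change, AND-TCR-transgenic over C57BL/6, of the 27 tested member probe sets (squares, open where at least 1 array was set to the detection limit), with 95% intervals and the log2 ratio of each hybridization (black circle and triangle). Of the 27 fitted values 21 lie above 0, and 11 of the intervals lie wholly above it.

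The interferon-induced GTPases, some of which attack vacuoles that hold pathogens, did not all read one way. Iigp1 (96764_at, U74Av2) read 599 and 811 in AND, against -9.1 and 362 in C57BL/6. Both C57BL/6 values were under the limit and were set to it. The fitted 1.66-fold difference is therefore a lower bound of the fitted value only. The interval of its log2 fold change ran from 0.10 to 1.36 (limma adjusted p = 0.291). Another Iigp1 probe set, 103963_f_at, was not tested and overlapped, at 107 and 542 in AND, against 196 and 52 in C57BL/6. Igtp read 2278 and 2319 in AND, against 1547 and 2539 in C57BL/6. The C57BL/6 duplicates of Igtp spanned both AND values, and the interval of the log2 fold change ran from -0.47 to 0.90. Irgm1 and Gbp2 did not overlap between the groups, at log2 fold changes of 0.60 and 0.51 (adjusted p = 0.434 and 0.572). Irgm2 and Ifi47 overlapped, at -0.18 and -0.25. Igtp and Irgm2, whose 41-base stretches shown above differ at 1 base, both had intervals that include 0.

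The membrane protein Bst2 (tetherin), which holds budding virions at the cell surface, read 4051 and 3014 in AND, against 4142 and 3931 in C57BL/6 (113036_at, U74Bv2). The groups overlapped and the log2 fold change was -0.21 ± 0.20 (SE, n = 2 each, limma adjusted p = 0.721). Ifi204, a HIN-200 protein that binds DNA, read 1096 and 1134 in AND, against 997 and 388 in C57BL/6 (98465_f_at, U74Av2), where the second C57BL/6 array was under the limit. The _f suffix marks probes that other transcripts can share. The remaining Ifi204 probe sets, 161180_r_at and 98466_r_at, were under the limit on every array and not tested. Of the other proteins, Ifi27l2a read 2695 and 756 in AND, against 847 and 367 in C57BL/6. Its log2 fold change of 1.26 had an SE of 0.63, with duplicates that lay far apart in both groups, and the adjusted p was 0.44. Ifi35 read 1676 and 1641 in AND, against 1298 and 724 in C57BL/6, without overlap (adjusted p = 0.418). Trim30a overlapped, at a log2 fold change of 0.35.

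The 24 member probe sets that were not tested included all those of 12 genes, Eif2ak2, Ifit3, Mx1, Oasl2, Rsad2, Gbp3, Ifitm1, Ifitm2, Ifitm3, Rtp4, Xaf1 and Ifi203. All 4 arrays were under the limit for 19 of the 24 probe sets, and the highest reading among the 24 was 883. A level under the limit has only an upper bound. The Ifitm3 probe set, for a membrane protein that blocks virus entry, read 148 and 799 in AND, against 97.5 and 518 in C57BL/6. The GTPase Mx1 read 116 and 529 in AND, against 153 and 337 in C57BL/6. In both genes the second hybridization read higher than the first in either group. Eif2ak2 (PKR), the kinase that halts translation on sensing double-stranded RNA, read 420.3 and 400.0 in AND, against 349 and 99.1 in C57BL/6 (93672_at), and all 4 values were under the limit. An ISRE core was present for 7 of 10 untested genes with a window (70%) and for 9 of 18 tested genes (50%). Of 7 genes with a window that read higher at an unadjusted p under 0.05, Isg15 and Ifit1 held one (28.6%).

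The rest of the interferon pathway was read in the same fit. Its list held 113 gene symbols, some of them older and newer names of the same gene, and 59 genes could be tested. At the brightest probe set per gene, 0 were called higher and 2 were called lower, against 0.483% and 0.568% of all tested probe sets. At an unadjusted p under 0.05, 22 read higher (37.3%) and 3 lower (5.08%). Counted over probe sets, 26 of 79 read higher (32.9%, against 7.47% of all tested probe sets) and 6 lower (7.59%, against 6.51%). The median log2 fold change over the 59 genes was 0.41, against 0.65 over the 22 member genes. The count of 22 was 15 without AND replicate 1 (25.4%, against 8.39% of all tested probe sets), 16 without AND replicate 2 (27.1%, against 6.71%), 9 without C57BL/6 replicate 1 (15.3%, against 4.62%) and 13 without C57BL/6 replicate 2 (22%, against 5.5%). With the day as a block, 3 genes were called higher, Ikbke, Ptpn6 and Sting1.

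Socs1, the inhibitor that binds Janus kinases and curbs cytokine signalling in thymocytes, read 2741 and 2552 in AND, against 6409.8 and 8357 in C57BL/6 (92832_at, U74Av2). It fell by 1.47 ± 0.19 on the log2 scale (SE, n = 2 each, limma adjusted p = 0.0213). Gbp8, a guanylate-binding protein, read 7859 and 7205 in AND, against 16311 and 18463 in C57BL/6 (109369_at, U74Bv2), and fell by 1.21 ± 0.11 (SE, n = 2 each, adjusted p = 0.0172). With 1 array left out, none of the 12844 probe sets was called, so the loss of these calls is no measure of their stability. The log2 fold changes in those fits were -1.28 to -1.66 for Socs1 and -1.12 to -1.29 for Gbp8. The Socs1 promoter window holds ISRE cores (chr16:10785594-10785629, minus strand) and is shown because the gene was lower where the members read higher.
Socs1: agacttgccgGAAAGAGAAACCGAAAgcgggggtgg

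Guanylate-binding proteins did not read in 1 direction. Gbp7, in the cluster on chromosome 3 with Gbp2 and Gbp3, read 3257 and 2992 in AND, against 1796 and 1738 in C57BL/6 (100880_at, limma adjusted p = 0.147), and a second probe set overlapped. Gbp9, in the cluster on chromosome 5 with Gbp8 and Gbp6, read 3705 and 3430.0 in AND, against 2314 and 2572 in C57BL/6 (adjusted p = 0.308). Gbp8 and its neighbor Gbp9 thus read in opposite directions, a difference that was not itself tested. Paralogs of this family can share probes, so the assignment is uncertain.

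Of the ligands, only Ifna5 had a tested probe set (101791_f_at), at 669 and 896 in AND, against 128 and 525 in C57BL/6, and its _f suffix marks probes that similar alpha interferon genes can share. The probe sets for Ifnb1 and Ifng did not meet the condition for testing. The receptor chains did not read in 1 direction. Ifngr2 read 12789 and 15580.2 in AND, against 8847 and 8747 in C57BL/6 (115695_r_at, log2 fold change 0.68, limma adjusted p = 0.0896). Ifngr1 read 4186 and 2915 in AND, against 4334 and 4976 in C57BL/6, and Ifnar2 read 1561 and 1051 in AND, against 1681 and 1744 in C57BL/6, at log2 fold changes of -0.41 and -0.42 (adjusted p = 0.464 and 0.622). Ifnar1 read 6589.9 and 5081 in AND, against 4993 and 7887 in C57BL/6, on U74Cv2, and its other tested probe set overlapped as well. The kinase Jak1 read 71571 and 60243 in AND, against 38086 and 44131 in C57BL/6, on U74Cv2 (168512_s_at). It read 7312 and 6177 in AND, against 3689 and 5106 in C57BL/6, on U74Av2 (98911_at) and had log2 fold changes of 0.63 there and 0.68 on U74Cv2 (adjusted p = 0.228 and 0.147).

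Among sensors and adaptors, Sting1, the adaptor for cytosolic DNA, read 15771 and 10876 in AND, against 4563 and 4429 in C57BL/6 (168500_s_at), with the largest positive log2 fold change of the pathway list, 1.54 ± 0.26 (SE, n = 2 each, limma adjusted p = 0.0558). The kinase Ikbke read 3839.5 and 4344 in AND, against 2129.8 and 1987 in C57BL/6 (adjusted p = 0.0705). Ddx58 (RIG-I), a sensor of viral RNA, read 5517 and 4747 in AND, against 2905 and 3421 in C57BL/6 (adjusted p = 0.178). The groups were separate at these probe sets, while another probe set of Sting1 (108352_at, U74Bv2), not tested, overlapped at 683 and 994 in AND and 1066 and 761 in C57BL/6. Among the inhibitors, the phosphatase Ptpn6 read 6339.9 and 7303 in AND, against 4363 and 4189.6 in C57BL/6 (adjusted p = 0.113), while the 3 tested probe sets of Socs3 had log2 fold changes of 0.61, -1.06 and -0.79.

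Of 34 tested genes on the list of other interferon-induced genes, 15 read higher and 2 lower at an unadjusted p under 0.05. Counted over probe sets, 18 of 44 read higher (40.9%, against 7.47% of all tested probe sets) and 3 lower, against 6.51%. Trim34a, a member of the tripartite motif family, read 9052 and 8550.4 in AND, against 4708 and 5211 in C57BL/6 (111044_f_at, limma adjusted p = 0.0554). Its _f suffix marks probes that other transcripts can share. Epsti1 went the other way, at 3497 and 2081 in AND and 7121 and 7665 in C57BL/6 (log2 fold change -1.45, adjusted p = 0.0874). Sp100, a nuclear body protein, read 6553 and 6782 in AND, against 4399 and 3578 in C57BL/6, at its U74Bv2 probe set (adjusted p = 0.118). The log2 fold changes of its 3 tested probe sets were 0.75, 1.07 and 0.46.

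**Figure D3:**
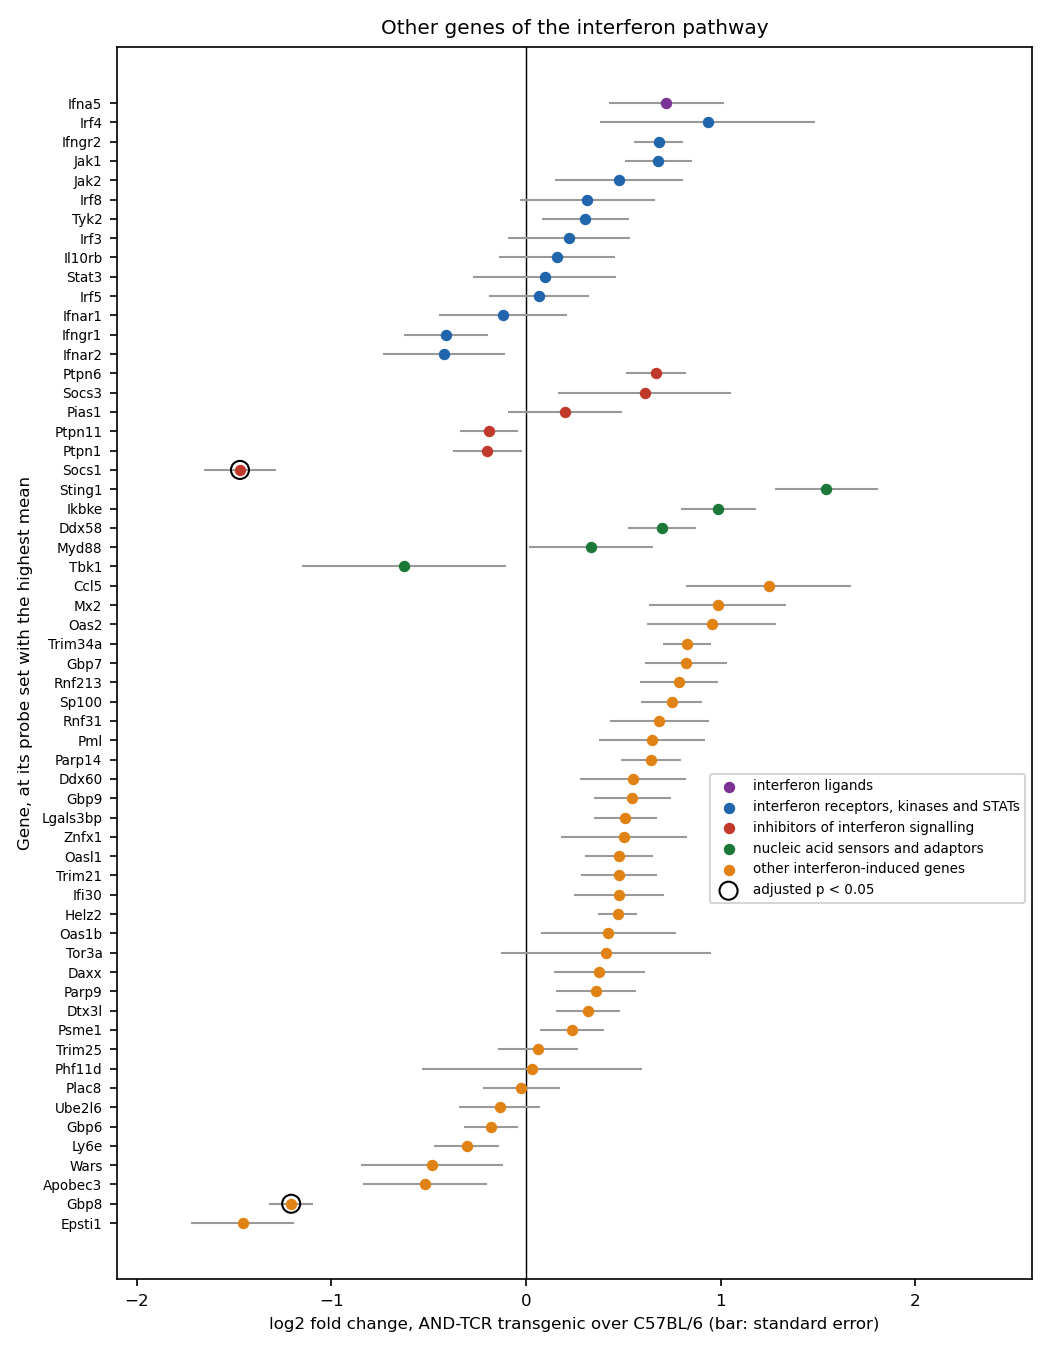
Log2 fold change, AND-TCR-transgenic over C57BL/6, of 59 tested genes of the interferon pathway list that are not members, at the brightest probe set per gene (points, with standard errors), colored by role. Socs1 and Gbp8 (circled, both lower) had an adjusted p under 0.05, and 44 of the genes lie above 0.

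**Figure D4:**
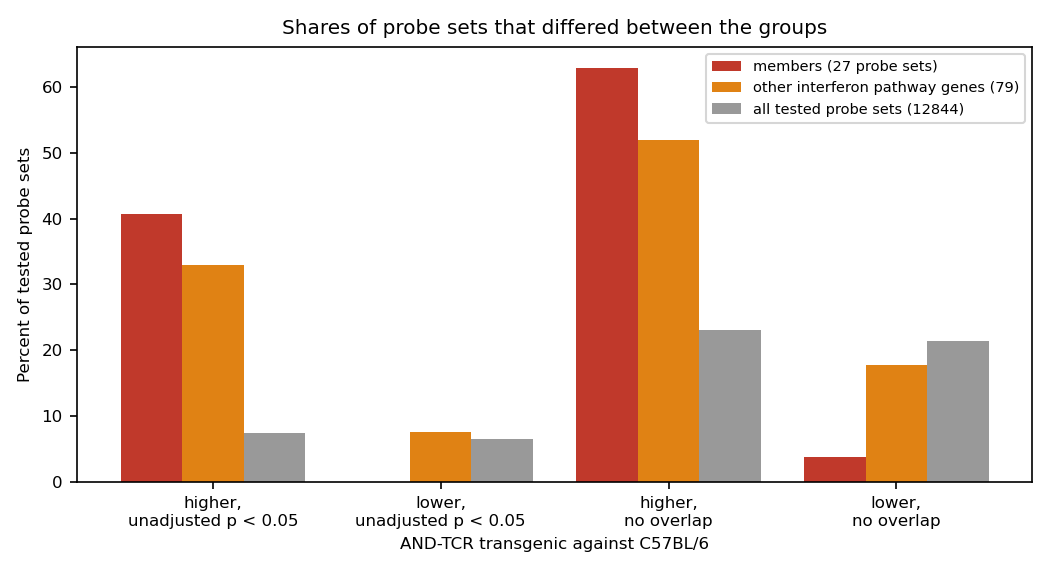
Percent of tested probe sets that read higher or lower in thymocytes of AND-TCR-transgenic mice, relative to C57BL/6, at an unadjusted p under 0.05 or with groups that did not overlap, for the members (27 probe sets), the other pathway genes (79 probe sets) and all tested probe sets (12844). The members' share of higher readings at that p was 40.7%, against 7.47% over all.

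Markers of other cells in the thymus moved with the groups in part. Of 9 tested marker genes of dendritic cells, 4 read higher at an unadjusted p under 0.05, namely Cd74, H2-Aa and H2-Eb1 of MHC class II antigen presentation and Ccr9, a chemokine receptor that thymocytes also carry. Counted over probe sets this was 4 of 12 (33.3%, against 7.47% of all tested probe sets). A second Ccr9 probe set overlapped (log2 fold change -0.15), and Tcf4 and Flt3 had log2 fold changes of -0.55 and -0.07. The list summed to 46832 and 46782 on U74Av2 in AND, against 38541 and 36912 in C57BL/6. Siglech, which marks plasmacytoid dendritic cells, was under the limit on every array, and Itgax read 370 and 541 in AND, against 509 and 749 in C57BL/6. Of 6 tested macrophage marker genes 0 passed that p, and Adgre1, Itgam, Marco and Mertk were under the limit on every array. That list summed to 6604 and 6676 in AND, against 4879 and 6234 in C57BL/6. Among natural killer and innate-like T cell markers Gzma read 3337 and 3411 in AND, against 821 and 1372 in C57BL/6 (limma adjusted p = 0.0621). All 3 tested probe sets of Nkg7 read lower without overlap, at log2 fold changes of -0.39, -0.16 and -0.50, with 10305 and 8182 in AND, against 11239.8 and 12904 in C57BL/6, at 136058_at, and the list median was -0.16. Il2rb had a log2 fold change of 0.31, and Ncr1, Klrd1, Gzmb and Zbtb16 were under the limit on every array. Of the B cell markers, 1 of 4 tested genes read lower at the unadjusted p, against 6.51% of all tested probe sets. The list summed to 2607 and 2581 in AND, against 3317 and 3538 in C57BL/6. Of the 4 genes, 3 had negative log2 fold changes. Pax5 went the other way without overlap, at 943 and 1337 in AND, against 691 and 843 in C57BL/6 (log2 fold change 0.56). Of the granulocyte markers, 1 of 3 read higher (33.3%, against 7.47% of all tested probe sets), with sums of 5352 and 5004 in AND, against 3734 and 2909 in C57BL/6. Of the red cell markers, 1 of 2 read lower, against 6.51% of all tested probe sets. Their sums were 7525 and 4939.9 in AND, against 10799 and 12809.8 in C57BL/6, and 0 of 2 thymic epithelium markers passed. The part of these cells in the interferon-induced differences was not tested.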

How the data were processed

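Total RNA of thymocytes had been converted to biotinylated cRNA, hybridized and scanned, and the images were read with Microarray Suite by the authors. As deposited, each value is a linear intensity that can fall below 0, and the arrays of a type share nearly 1 trimmed mean. Whether they are average differences or another statistic is not given in the sources used here. Deposited run records gave other hybridization settings and were used only for batches. Scaled intensities were floored at the detection limit (2 noise SDs, the noise SD being 1.4826 times the median absolute negative value) and log2-transformed, which understates differences of genes near the limit. Group differences were fitted with limma 3.58.1 (lmFit, eBayes with trend) in R 4.3.3, 1 fit per array type, and p-values were adjusted by Benjamini-Hochberg over all 12844 tested probe sets. The script was tested on simulated data. Each array type was scaled on its own, and levels were set across types only to pick the brightest probe set of a gene. Precision is limited by the number of arrays, 2 per group and type.

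Gene names came from GEO's platform table, in which 29197 probe sets had 1 symbol, 724 several and 6978 none, and 29110 of the first matched RefSeq. The members, the pathway and marker lists and the tests were chosen with earlier results of these data known. All 4 values are given for members at an unadjusted p under 0.05, members whose probe sets differ in sign and the brightest remaining member of each role group. Of the pathway list they are given for genes called, up to 4 genes of a sub-list with the lowest p among those at an unadjusted p under 0.05, Ifnar1, Ifnar2, Ifngr1, Ifngr2 and Jak1. Values of Ifi27l2a, Ifitm3, Mx1, Eif2ak2, Gbp7, Gbp9, Itgax, Gzma, Nkg7, Il7r, Pax5, Eif2s3y and the second probe sets were added after they were seen. Promoter sequences are from RefSeq. Figures were drawn with matplotlib 3.10.9.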

Additional observations from a re-analysis of the deposited data

How the results depend on the processing

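No alternative setting reversed a direction of the 11 member probe sets at an unadjusted p under 0.05, of Socs1 or of Gbp8. The members' count called was 0 in each setting but one. With the hybridization number as a replicate block it was 1 (Irf9, limma adjusted p = 0.0421), where the total of calls was 306 against 135. The labels tie no number to an animal, the run records put each number on 1 day, and the correlation of same-numbered deviations was 0.04 on U74Av2, -0.12 on U74Bv2 and -0.23 on U74Cv2, so the numbers were not taken as pairs. The members' count at the unadjusted p ranged from 2 to 6 when 1 array was left out, and the median log2 fold change was lowest, 0.34, for a generalized log with no filter, an alternative chosen after seeing the data. The count of pathway genes called higher, 0, was 1 with a limit of 4 noise SDs and 1 with adjustment within each array type, 2 with quantile normalization and 2 with the generalized log without a filter, 3 with the replicate block, and 4 with the generalized log and 4 with all 4 arrays required above the limit. The pathway count called lower, 2, was 0 without a trend in the prior variance (10 calls in all) and 0 to 0 with 1 array left out, where no probe set of any gene was called and the count says nothing about stability. The pathway count at the unadjusted p ranged from 9 to 16 with 1 array left out. The cause of these changes was not tested. The floored fit with no filter was not run because all 4 arrays lay at the floor for 50.5% of U74Bv2 and 66% of U74Cv2 probe sets.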
